A study of Danio rerio with 8 samples.

Results

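The cytosolic translation elongation and termination factors were followed in embryos of the zebrafish, Danio rerio, taken 4 hours after fertilization (hpf), at the blastula stage. They were chosen by gene symbol, case ignored, as eef1a1l1, eef1b2, eef1g, eef2b and etf1, with etf1a and etf1b. The symbol table gave 6 identifiers for these 7 symbols, and 4 of them were among the 33633 identifiers used from the files: eef1a1l1 (ENSDARG00000020850), EEF1B2 (ENSDARG00000044521), EEF1G (ENSDARG00000056119) and ETF1 (ENSDARG00000043976). The identifiers of eef2b and etf1a in that table were not analysed here. All 4 measured factors were among the 7698 genes with a mean over the groups of at least 1 FPKM, a footprint level scaled to gene length and library size. Capital letters follow the symbol table.

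Ribosome profiling, which sequences the RNA fragments that ribosomes protect from nuclease, was done on 8 samples in 4 groups of 2. WT embryos were wild type. KO embryos had the genotype Ddx3xb-/Ddx3xb-, which both injected groups shared: KO_FL embryos had received a construct labelled ddx3xbFL and KO_dN embryos one labelled ddx3xb△N. The gene codes for an RNA helicase of the DDX3 family, whose members have roles in starting translation. A group had 1 deposited value per gene, made by the authors from both replicates, so no value has an error, no difference has a test and none has a replicate check. Mutant embryos injected with a control were not analysed here, so injection and construct cannot be told apart. The sources used here do not give the nature of the mutation or of the injected material.

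During elongation, eEF1A brings each aminoacyl-tRNA to the ribosome as a complex with GTP, and leaves with GDP. The eEF1B complex exchanges that GDP for GTP: eEF1B alpha, the product of EEF1B2, is a catalytic subunit, and eEF1B gamma, the product of EEF1G, is a structural subunit that binds it. eEF2 then moves the ribosome along by a codon. At a stop codon eRF1, the product of ETF1, recognises the codon and releases the protein together with the GTPase eRF3. In vertebrates the messengers of the elongation factors, like those of ribosomal proteins, mostly begin with a terminal oligopyrimidine tract, through which their translation is controlled together.

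The sources differed in ways that bear on every value below. The FPKM summed to 2050730 in WT, against 364175 in KO, 395843 in KO_FL and 190755 in KO_dN, and the log2 ratio of the median gene was -1.94 in KO/WT, 0.18 in KO_FL/KO and -0.36 in KO_dN/KO. Depth was read from the worth of a single read in genes under 0.1 FPKM, on the condition of 1 scale for all files. It ran from 27.2% to 100% of that of the deepest library, and the pair of WT libraries was the shallowest, at 34.5% and 27.2%. This depth is the total that FPKM is scaled to, and not the reads that fell on genes. An identifier at 0 FPKM in every group ranked 23671st in WT, against 19443rd in KO, 20624th in KO_FL and 18079th in KO_dN. WT thus had the most identifiers above 0. The number of reads behind a value is not known, so no counting interval can be given. The WT file also had another layout than the rest. The targeted gene ddx3xb stood at 129 FPKM in WT, then 14.7 in KO, 76.7 in KO_FL and 126 in KO_dN. All 6 maternal and blastula markers were at 1 FPKM or more in every group, while the 9 identifiers of later tissue markers summed to 0.742 to 2.75 FPKM. The maternal marker ZAR1 was lowest in WT, at 4.18 FPKM, against 32.5 in KO, 42.5 in KO_FL and 18.4 in KO_dN. The other maternal and blastula markers were highest in WT. Whether the groups differed in stage was not tested. Enveloping layer markers summed to 304 FPKM in WT and, among the mutants, 35.5 in KO, 80.6 in KO_FL and 19.0 in KO_dN. Yolk syncytial layer markers summed to 433, 83.6, 148 and 43.3 FPKM in those groups. Most of each sum was ctsla, at 375, 79.6, 128 and 40.0 FPKM. The others in WT and KO were mxtx1 at 17.7 and 0.146, mxtx2 at 8.61 and 0.516, and apoeb at 31.1 and 3.37 FPKM. The sums of both layers ranked the groups as all 4 factors did. The total FPKM sums given above ranked them the same way, so the shared ranking does not set these markers apart. Of the enveloping layer markers, krt92 alone was lower in KO_FL than in KO, at 1.47 against 2.58 FPKM. At 0 were 1 of 8 enveloping layer markers in KO and in KO_dN, and 0 of 4 yolk syncytial layer markers in any group. The part of either cell layer in the results was not tested.

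The eEF1A gene eef1a1l1 was at 147 FPKM in WT, against 34.5 in KO, 91.5 in KO_FL and 28.6 in KO_dN. WT was highest, KO_FL lay nearest to it, and KO and KO_dN were close to each other at the low end. The level was 4.26-fold lower in KO than in WT and 2.65-fold higher in KO_FL than in KO. By rank in its group eef1a1l1 did not stand lower in the mutant. Its KO/WT ratio relative to the median gene changed sign with the processing, as given below. Among all identifiers it ranked 398th in WT, then 332nd in KO, 234th in KO_FL and 288th in KO_dN, with the first the highest. These are footprints in whole embryos with no matched RNA values used here, so messenger amount and ribosome load cannot be told apart, nor can fewer cells of a type and less RNA per cell. In RefSeq's GRCz12tu annotation, used for names only, its neighbour is the paralogue eef1a1l2, and reads shared between such copies could be counted on either, so the level of eef1a1l1 is uncertain to that extent.

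EEF1B2, the exchange factor for eEF1A, was at 32.7 FPKM in WT and, among the mutants, 4.92 in KO, 12.6 in KO_FL and 3.20 in KO_dN. The order of the groups was that of eef1a1l1. The level was 6.66-fold lower in KO than in WT, 2.56-fold higher in KO_FL than in KO and 3.93-fold higher in KO_FL than in KO_dN. Its rank was 1246th in WT, against 1387th in KO, 818th in KO_FL and 1276th in KO_dN, so that it stood nearer the top with ddx3xbFL than in any other group.

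EEF1G, the structural partner of EEF1B2, was at 46.3 FPKM in WT, then 2.93 in KO, 4.19 in KO_FL and 2.73 in KO_dN. Only WT was high, and the 3 mutant groups lay together at the bottom. The level was 15.8-fold lower in KO than in WT, and 1.43-fold higher in KO_FL than in KO. Its rank went from 930th in WT to 2183rd in KO, 1965th in KO_FL and 1467th in KO_dN, so EEF1G stood further down the order in every mutant group than in WT.

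ETF1, the release factor, was at 227 FPKM in WT and, among the mutants, 20.5 in KO, 30.9 in KO_FL and 12.3 in KO_dN. It had the highest level of the 4 factors in WT and the second highest in each mutant group, where eef1a1l1 was above it. The level was 11.1-fold lower in KO than in WT, 1.51-fold higher in KO_FL than in KO and 1.66-fold lower in KO_dN than in KO. Its rank was 291st in WT and 469th, 457th and 470th in KO, KO_FL and KO_dN, almost equal in the 3 mutant groups.

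**Figure D1:**
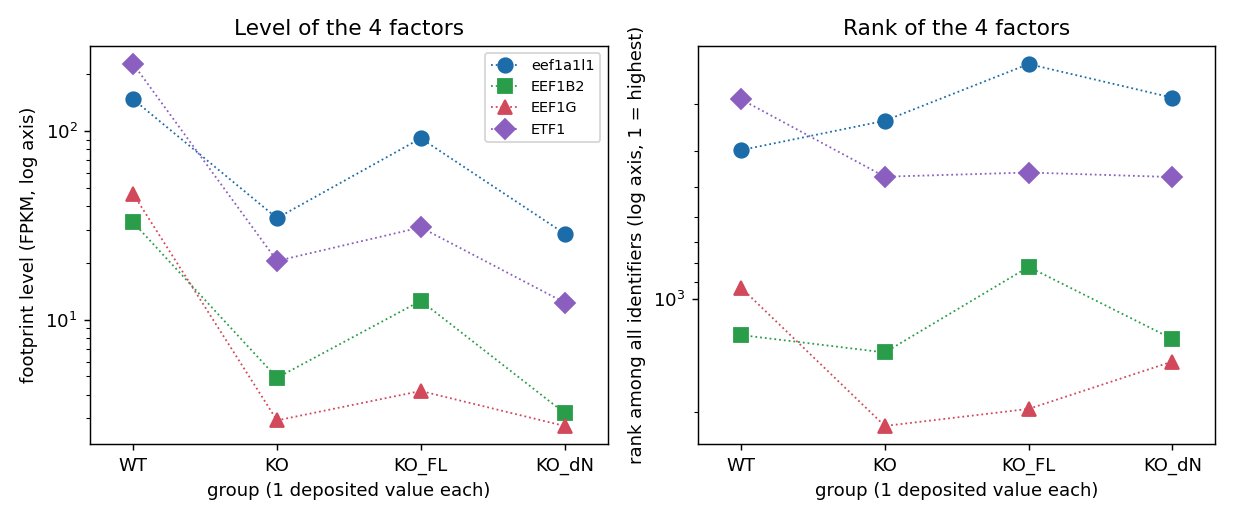
Footprint level (FPKM, left) and rank among all identifiers (right, the first at the top) of the 4 factors in each group, both on log axes; each point is 1 deposited value and dotted lines join the points of a gene. All 4 levels are highest in WT and lowest in KO_dN, with eef1a1l1 at 91.5 FPKM in KO_FL against 34.5 in KO, while the ranks of EEF1G and ETF1 are lower in the 3 mutant groups than in WT.

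Because FPKM is scaled to the length of the gene and to the library, the ratio of 2 factors within a group does not depend on how groups are scaled to each other. The proportions of the factors differed between the groups, with no replicate error to set them against. eef1a1l1 over EEF1G, the carrier over the structural subunit of its exchange complex, was 3.18 in WT, against 11.8 in KO, 21.9 in KO_FL and 10.5 in KO_dN. It was thus 3.72 times the WT ratio in KO and 6.88 times in KO_FL. eef1a1l1 over ETF1 was 0.650 in WT, then 1.69 in KO, 2.97 in KO_FL and 2.32 in KO_dN, so that the factor with the higher level was ETF1 in WT and eef1a1l1 in each mutant group.

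The subunits of eEF1B changed places as well. EEF1B2 over EEF1G was 0.707 in WT and, among the mutants, 1.68 in KO, 3.01 in KO_FL and 1.17 in KO_dN, which put EEF1G above EEF1B2 in WT and below it in the others. In KO_dN they were nearly level, at 3.20 and 2.73 FPKM. EEF1B2 over ETF1 was 0.145 in WT, against 0.240 in KO, 0.408 in KO_FL and 0.260 in KO_dN. In KO and KO_FL the ratios of the other pairs differed less from WT, but not in KO_dN. There eef1a1l1 over EEF1B2 was 1.99 times its WT ratio, against 1.66 times for EEF1B2 over EEF1G and 1.80 times for EEF1B2 over ETF1. eef1a1l1 over EEF1B2 was 4.50 in WT, then 7.02 in KO, 7.27 in KO_FL and 8.93 in KO_dN, and between KO and KO_FL it differed by 1.03 times. EEF1G over ETF1 was 0.205 in WT and, among the mutants, 0.143 in KO, 0.136 in KO_FL and 0.222 in KO_dN.

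**Figure D2:**
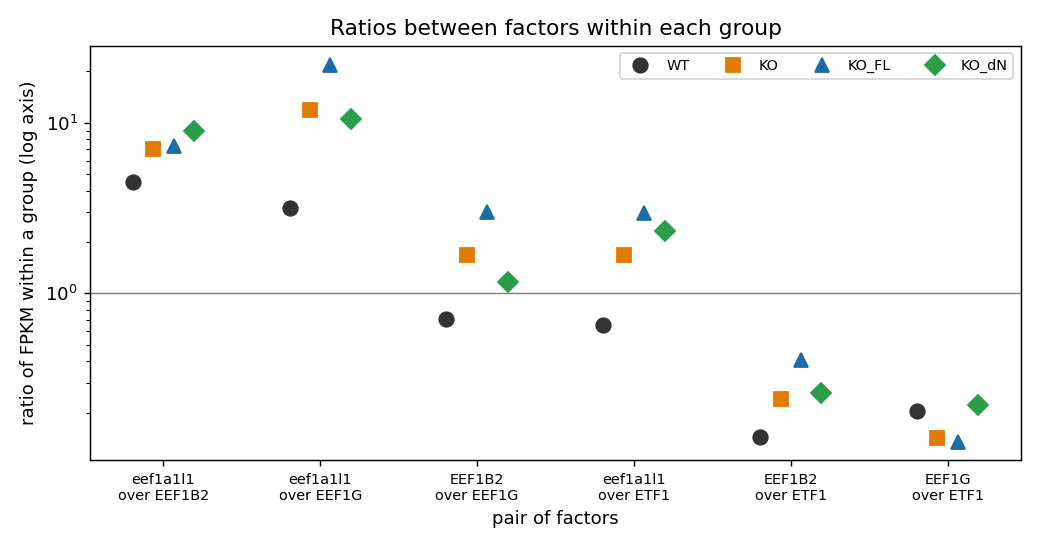
Ratio of the FPKM of 2 factors within a group (log axis) for the 6 pairs; each marker is 1 group and the grey line marks equal levels. The ratio of eef1a1l1 to EEF1G runs from 3.18 in WT to 21.9 in KO_FL, and those of EEF1B2 to EEF1G and of eef1a1l1 to ETF1 lie below 1 in WT and above 1 in the 3 mutant groups.

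The factors were then set against all genes. The relative log2 ratio is log2((a + 1)/(b + 1)) of the FPKM minus that of the median gene, and a gene was called past 2-fold on this scale. In KO/WT, EEF1G (-1.65) and ETF1 (-1.46) were past 2-fold lower, EEF1B2 was at -0.57 and eef1a1l1 at -0.12. Of all 7698 genes, 16.8% were called lower and 15.6% higher, and 7.68% had a lower ratio than EEF1G and 9.46% than ETF1. The filter and the scale moved these values: under 9 alternatives, which changed the pseudocount, the filter, the scale or the handling of repeated identifiers, EEF1G stayed below the median gene, from -3.37 to -1.02, and ETF1 from -3.18 to -0.83, while eef1a1l1 went from -1.84 to 0.51, above the median gene under 5 of them. EEF1B2 went from -2.29 to 0.06 and changed sign under 1. ETF1 was under 2-fold in 3 of the 9 and EEF1G in 0.

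Values of genes of like mean level are given beside these. The genes tested were divided into 10 bins of equal size by mean FPKM over the 4 groups. WT weighs most in that mean, so a high bin favours genes high in WT and a low KO/WT ratio is partly built into it. By this division eef1a1l1 and ETF1 fell in the highest bin, whose median relative log2 ratio was -0.89, and EEF1B2 and EEF1G in the next, with -0.75. Within its bin EEF1G had 20.9% of the genes below it and ETF1 35.1%. EEF1B2 had 57.1% below it and eef1a1l1 67.4%. Because of the way the bins were made, these places are a description and no corrected ratio.

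In KO_FL/KO, eef1a1l1 was at 1.20 and EEF1B2 at 1.02, both past 2-fold higher. ETF1 was at 0.39 and EEF1G at 0.23. Of all genes, 4.72% were called higher and 2.64% lower in this comparison, and 96.5% lay below eef1a1l1 and 95.4% below EEF1B2. All 4 factors stayed above the median gene under the 9 alternatives, eef1a1l1 from 0.82 to 1.38 and EEF1B2 from 0.76 to 1.20. However, EEF1B2 was past 2-fold under only 4 of them. ETF1 went from 0.05 to 0.57 and EEF1G from 0.08 to 0.40, so their lowest values were close to that of the median gene. Within the same bins 83.6% of the genes lay below eef1a1l1 and 91.4% below EEF1B2, against 50.7% for ETF1 and 59.2% for EEF1G.

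With ddx3xb△N in place of ddx3xbFL, none of the 4 factors was past 2-fold relative to KO, where 1.7% of all genes were called higher and 1.96% lower. In KO_dN/KO, EEF1G was at 0.29, eef1a1l1 at 0.10, EEF1B2 at -0.13 and ETF1 at -0.33. Each of these changed sign under at least 1 alternative, so no direction is given for them. In KO_FL/KO_dN, which sets the constructs side by side, EEF1B2 was at 1.16, eef1a1l1 at 1.11, ETF1 at 0.72 and EEF1G at -0.06. Here 6.03% of all genes were called higher and 2.36% lower; EEF1B2 was from 0.76 to 1.69 and eef1a1l1 from 0.51 to 1.64 under the alternatives, and they were under 2-fold in 7 and 6 of the 9. ETF1 went from 0.05 to 1.25, and EEF1G changed sign under 2 of the 9. In this comparison the bin of eef1a1l1 and ETF1 had a median of 0.74, and that of EEF1B2 and EEF1G 0.42. Within its bin ETF1 had 48.8% of the genes below it and eef1a1l1 72.3%, while EEF1B2 had 91.2% and EEF1G 15.3%.

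The injected groups were also read against WT. In KO_FL/WT, eef1a1l1 was at 1.06 relative to all genes and EEF1B2 at 0.43, while ETF1 was at -1.09 and EEF1G at -1.45. Of all genes, 14.5% were called higher and 13.9% lower, and eef1a1l1 turned to -0.46 with no filter on low values. In KO_dN/WT, eef1a1l1 was at -0.06, EEF1B2 at -0.74, EEF1G at -1.40 and ETF1 at -1.83, where 14.3% of genes were called higher and 19.1% lower. EEF1B2 changed sign under 2 of the 9 alternatives in KO_FL/WT and under 1 in KO_dN/WT, and eef1a1l1 under 6 in KO_dN/WT, while EEF1G and ETF1 were below the median gene under all 9 in both. ETF1 was under 2-fold in 4 of the 9 in KO_FL/WT and 3 in KO_dN/WT, and EEF1G in 1 and 5. In KO_FL/WT eef1a1l1 was under 2-fold in 3. Within its bin by mean level, EEF1G had 19.2% of the genes below it in KO_FL/WT and 38.8% in KO_dN/WT. These shares were 31.6% and 34.7% for ETF1, 76.2% and 62.2% for EEF1B2, and 80.8% and 72.6% for eef1a1l1. These comparisons share the WT libraries with KO/WT, so the values are given side by side and not as repeats of one another. The distance between the highest and the lowest of the 4 factors was 1.53 in KO/WT, 2.51 in KO_FL/WT and 1.77 in KO_dN/WT on the log2 scale.

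**Figure D3:**
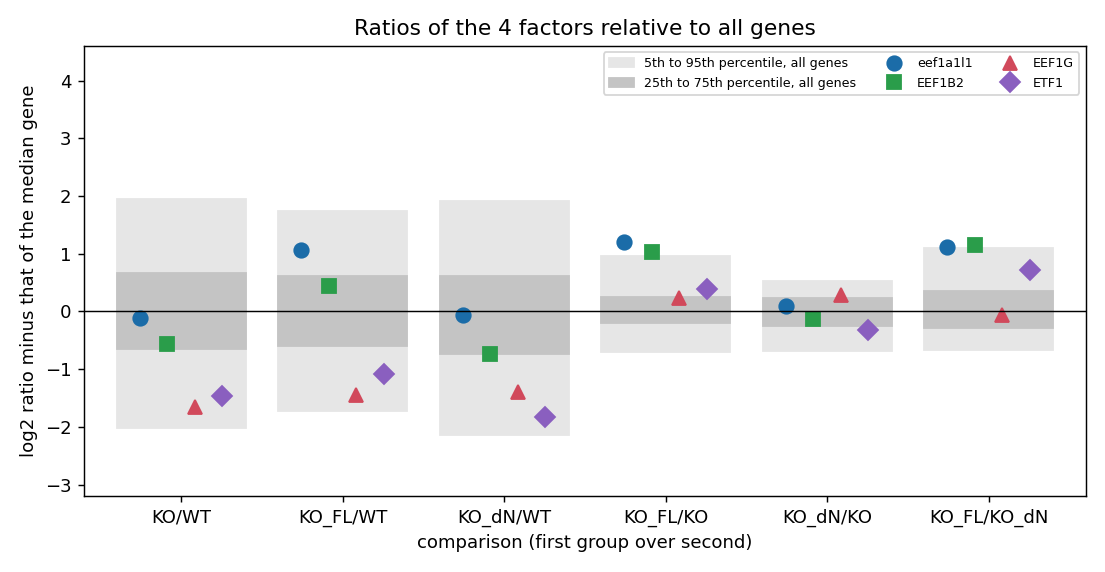
Log2 ratio minus that of the median gene for the 4 factors in 6 comparisons; dark and light bands hold the 25th to 75th and the 5th to 95th percentile of all 7698 genes. In KO/WT, EEF1G (-1.65) and ETF1 (-1.46) lie below the dark band, and in KO_FL/KO eef1a1l1 (1.20) and EEF1B2 (1.02) lie above the light one.

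Other genes of elongation and termination were taken from 5 lists that held 75 symbols and 52 identifiers in the files, the 4 factors included. Of these, 26 passed the filter, 22 of them other than the 4 factors. In FPKM as deposited 21 of the 22 were lower in KO than in WT, and 14 were higher in KO_FL than in KO. The median of all 7698 genes moved the same way, at a log2 ratio of -1.94 in KO/WT and 0.18 in KO_FL/KO. On log2((a + 1)/(b + 1)), before the median gene was subtracted, 6399 of all genes were at least 2-fold lower in KO than in WT. How many of all genes were lower in KO, or higher in KO_FL, by any amount was not counted. The counts of 21 and 14 are therefore not read as setting the list apart. Relative to all genes, 2 of the 22 were past 2-fold higher and 2 lower in KO/WT, 0 in either direction in KO_FL/KO and 0 in KO_dN/KO. The shares of all genes called higher and lower were 15.6% and 16.8%, 4.72% and 2.64%, and 1.7% and 1.96% in these comparisons. Of the 22, 9 were under 1 FPKM in KO, 6 of them also in KO_FL and 9 in KO_dN. At such levels a pseudocount of 1 leaves little room to pass 2-fold, so the counts of 0 do not show that these genes kept their levels. DHPS, which makes the first step of the hypusine modification of eIF5A, was at 0.171 FPKM in KO and 0.863 in KO_FL with a relative log2 ratio of 0.49.

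Among the partners in the eEF1 complex, EEF1D, the other exchange subunit, was at 3.65 FPKM in WT, against 0.497 in KO, 0.958 in KO_FL and 0.503 in KO_dN. Also on the list for the eEF1 complex, EEF1E1, a scaffold protein of the synthetase complex, was at 3.59, 0.444, 0.420 and 0.432 FPKM in the same order. Both were far below EEF1B2 and EEF1G in WT. The other eEF1A genes on the list were listed at no more than 0.336 FPKM in any group: eef1a2 and both identifiers named EEF1A1. Of the eEF1A identifiers on the list, eef1a1l1 was the one above 1 FPKM in any group.

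The eEF2 genes that were read stood low in WT, and eef2b, the eEF2 gene among the chosen symbols, was not analysed here. eef2a.1 was at 1.63 FPKM in WT, then 4.80 in KO, 3.03 in KO_FL and 2.21 in KO_dN, so that WT was lowest and KO highest. It was the gene among the 22 with a higher level in KO than in WT, with a relative log2 ratio of 3.08 in KO/WT, and it had the lowest of the list in KO_FL/KO, at -0.70. eef2a.2 reached 0.0701 FPKM and EEF2 0.459 in their highest group. EEF2K, the kinase that inhibits eEF2, was at 0.0286 FPKM in WT and 0.0523 in KO. DPH1, an enzyme of the diphthamide modification of eEF2, was at 2.69 FPKM in WT and, among the mutants, 0.926 in KO, 0.904 in KO_FL and 0.624 in KO_dN.

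The lowest ratios in KO/WT and KO_dN/WT outside the 4 factors belonged to eif5a and secisbp2. eif5a, which helps ribosomes past difficult peptide bonds and in termination, was at 66.2 FPKM in WT, against 3.61 in KO, 6.48 in KO_FL and 2.18 in KO_dN. Its relative log2 ratio was -1.92 in KO/WT and -2.14 in KO_dN/WT. secisbp2, which brings the selenocysteine machinery to selenoprotein messengers, was at 27.0, 1.44, 1.35 and 0.573 FPKM. DHPS was at 4.34 FPKM in WT and 0.194 in KO_dN. The 3 genes had their highest level in WT.

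Among the termination and recycling genes, gspt1, for the eRF3 GTPase that acts with ETF1, was at 0.885 FPKM in WT, then 0.147 in KO, 0.0757 in KO_FL and 0.0532 in KO_dN; another identifier of that symbol was not analysed here. ABCE1, which splits the ribosome after termination, was at 4.44, 0.724, 1.58 and 0.501 FPKM in the same order, relative log2 ratios of 0.28 in KO/WT and 0.40 in KO_FL/KO. HBS1L, a GTPase of stalled ribosome rescue, was at 6.10, 1.42, 0.850 and 0.858 FPKM. DENR, which acts in recycling of the small subunit and in reinitiation, was at 68.8, 10.0, 13.5 and 4.85 FPKM. All 4 stood below the 227 FPKM of ETF1 in WT on the per-length scale.

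**Figure D4:**
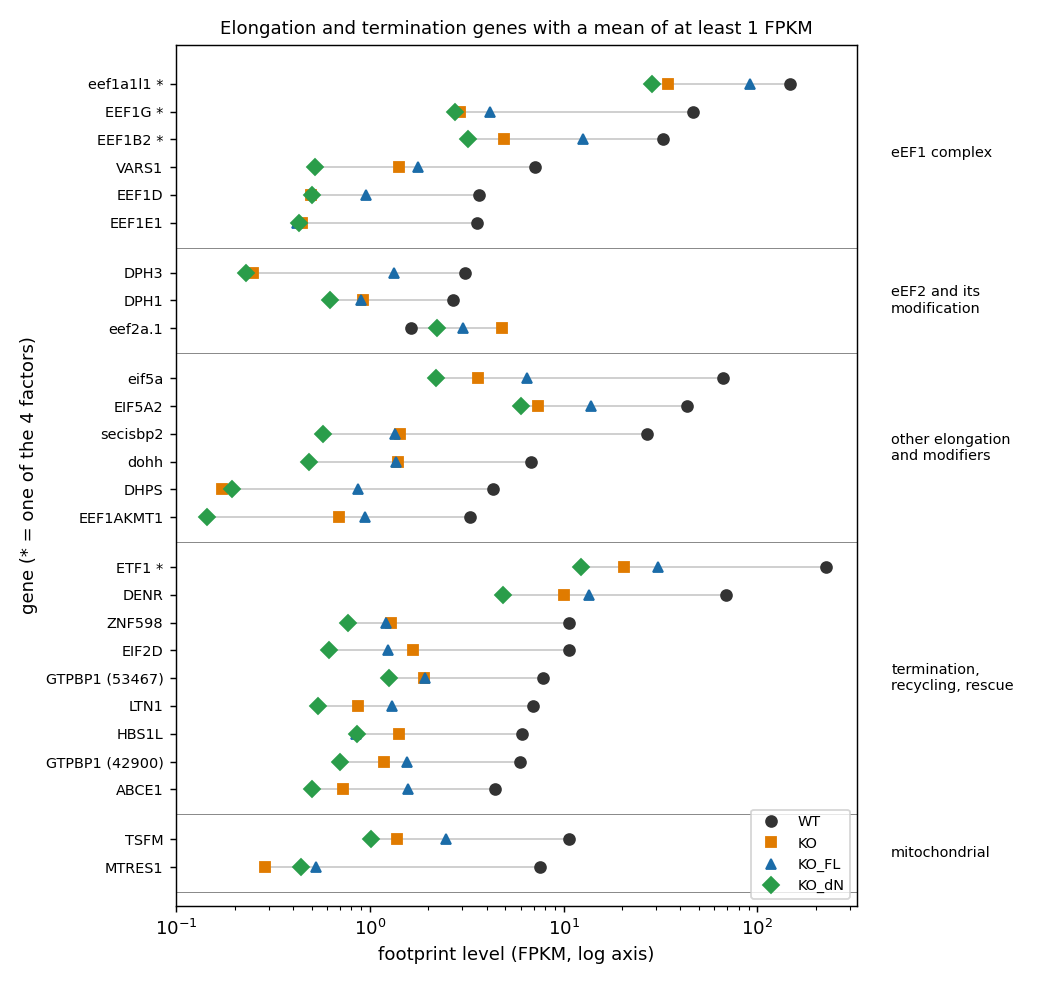
Footprint level (FPKM, log axis) of the 26 elongation and termination genes with a mean of at least 1 FPKM, by role; markers are the groups, grey lines join the lowest and highest group of a gene, and asterisks mark the 4 factors. WT is the highest group for every gene shown but eef2a.1, which is at 1.63 FPKM in WT and 4.80 in KO.

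Other parts of the translation machinery were read for contrast. The 72 cytosolic ribosomal protein genes had a median relative log2 ratio of -1.53 in KO/WT. Of them 51 (70.8%) were past 2-fold lower and 1 (1.39%) higher, against 16.8% and 15.6% of all genes. EEF1G (-1.65) and ETF1 (-1.46) lay close to that median, with 30 and 38 of the 72 genes below them. EEF1B2 had 62 below it and eef1a1l1 67, so that few ribosomal protein genes had ratios as high. In KO_FL/KO their median was 0.76, with 20 (27.8%) past 2-fold higher and 0 lower, against 4.72% and 2.64% of all genes. There eef1a1l1 and EEF1B2 lay above the median, with 63 and 54 genes below them, and ETF1 and EEF1G near the bottom, with 5 and 3 below. No single factor thus lay close to the ribosomal protein median in both comparisons. The median level of the ribosomal protein list in WT was 25.1 FPKM. In KO/WT the highest bin by mean level had a median of -0.89 and the next -0.75. The list was not set against genes of like level.

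The 51 initiation factor genes and their regulators had medians of -0.01 in KO/WT and 0.05 in KO_FL/KO. In KO/WT 8 (15.7%) were past 2-fold lower and 4 (7.84%) higher, against 16.8% and 15.6% of all genes. In KO_FL/KO 1 (1.96%) was lower and 0 higher, against 2.64% and 4.72% of all genes. A list of 16 genes held 14 aminoacyl-tRNA synthetases, which charge the tRNAs that eEF1A carries, and AIMP1 and AIMP2, scaffold proteins of the synthetase complex. Its medians were -0.10 and 0.06, with 1 lower and 1 higher in KO/WT, each 6.25% of the list, and 0 in KO_FL/KO. The higher one was AIMP2, named after its values were seen, and 0 of the 14 synthetases were past 2-fold higher. The highest value in KO_FL/KO was 0.84 among initiation genes and 0.36 on the synthetase list, below the 1.20 of eef1a1l1 and the 1.02 of EEF1B2. These are descriptions of single values and the difference between lists was not tested. The median level in KO was lower for both lists than the 34.5 FPKM of eef1a1l1 and the 4.92 of EEF1B2. A pseudocount of 1 FPKM understates changes more at such levels, and its part in the lower values was not tested. The ribosomal protein list also had a median in KO below both factors, at 1.62 FPKM, so the same understatement bears on its values.

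**Figure D5:**
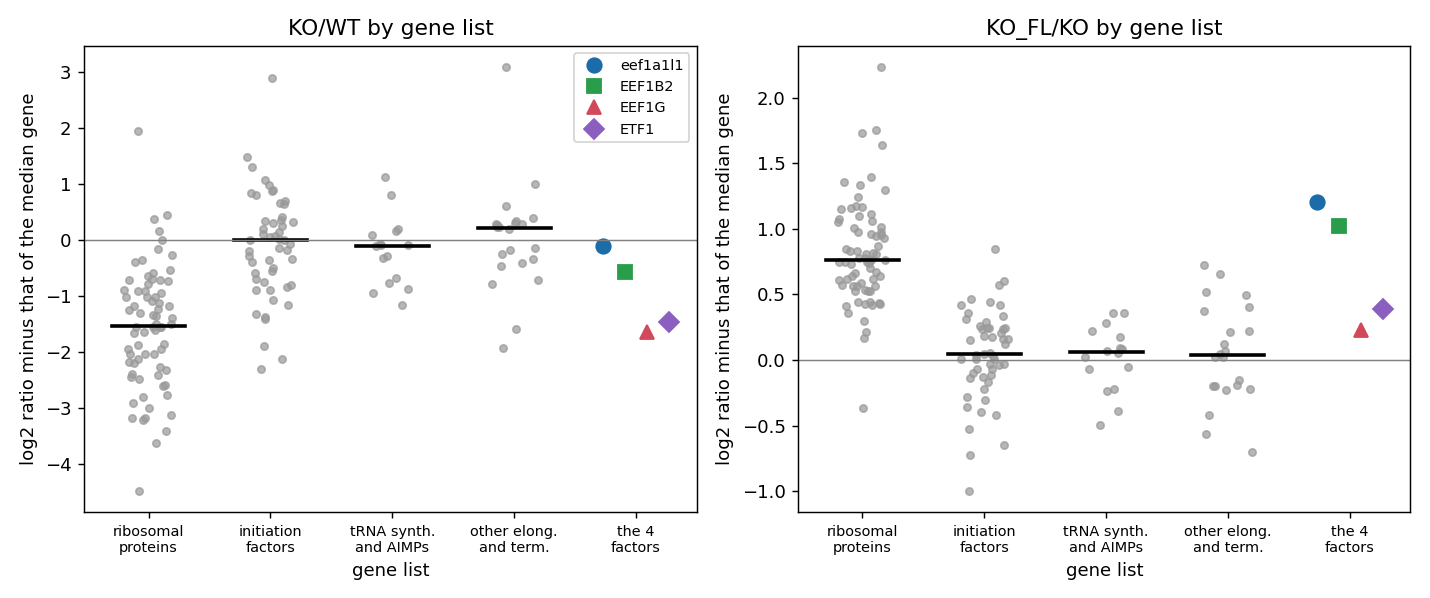
Log2 ratio minus that of the median gene in KO/WT (left) and KO_FL/KO (right); grey points are genes of each list, black bars their medians, and coloured markers the 4 factors. In KO/WT, EEF1G and ETF1 lie near the ribosomal protein median of -1.53, and in KO_FL/KO eef1a1l1 (1.20) and EEF1B2 (1.02) lie above all genes shown of the initiation factor and synthetase lists. The pseudocount of 1 FPKM understates the change of low genes.

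The genes with the most similar profiles were found over the 4 groups, from 2438 other named genes at 1 FPKM or more in all of them. The measure was the Euclidean distance between log2(FPKM + 1) values centred on each gene's mean. For eef1a1l1 the nearest were fxyd6l (0.26), stard14 (0.27) and CLASP1 (0.31). For EEF1B2 they included TXN (0.13) and srsf5a (0.21). For EEF1G they were GGNBP2 (0.06), MT-ND4 (0.19) and si:ch211-244o22.2 (0.21), and for ETF1 they were TCEA1 (0.06), SERF2 (0.07) and YWHAB (0.09). The pseudocount of 1 FPKM understates the falls of low genes, so a short distance does not mean equal folds. SERF2 was at 37.4 FPKM in WT and 1.17 in KO_dN, against 227 and 12.3 for ETF1. GGNBP2 was at 25.2 FPKM in WT and 1.09 in KO, against 46.3 and 2.93 for EEF1G. The distance was 0.54 between eef1a1l1 and EEF1B2 and 0.58 between EEF1G and ETF1, against 1.11 to 1.79 for the pairs across. EEF1B2 was the 31st nearest gene to eef1a1l1, and eef1a1l1 the 87th nearest to EEF1B2. ETF1 was the 224th nearest to EEF1G and EEF1G the 327th nearest to ETF1, so many other genes lay closer to each. EEF1G, the complex partner of EEF1B2, was the 1682nd nearest to it.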

How the data were processed

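The authors deposited FPKM (fragments per length of transcript and per mapped fragments) as a single value for each gene in a group, made from both replicates per the series design text. Per the submitters' processing notes the build was Zv9 and the tools were Cufflinks 2.2.1, TopHat2 2.1.1, Bowtie, Trimmomatic 0.36 and cutadapt 1.13. The sources used here do not give settings, annotation or strand use. Cycloheximide was given to the embryos before lysis, per the labels' protocols, and lysates were digested with RNase I and depleted of ribosomal RNA before small RNA libraries were made.

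The WT file listed 101 identifiers on more than 1 line and lacked 3 of 33737, and these were left out, which left 33633. Symbols matched 21863. Log2 ratios used a pseudocount of 1 FPKM, which understates the change of low genes, and a mean of at least 1 FPKM over the 4 groups. Depth was read from the 4 commonest single-read steps, required to have equal outer and inner sums, in 15.7 to 20.2% of genes below 0.1 FPKM in KO and another group. The ratio step was tested on simulated data. Python 3.11.15, numpy 2.4.6 and pandas 2.3.3 were used.

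Members and lists were chosen with earlier results of these data known. Named were the 4 factors, their paralogues and complex partners, the 2 highest and 2 lowest of the wider list per comparison, and the 3 nearest profiles per factor, of which 1 is not reported here. The initiation list took every symbol from eif1 to eif6 but eif5a, with kinases and binding proteins, and shared EIF2D with the wider list; the synthetases shared VARS1.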

Additional observations from a re-analysis of the deposited data

How the results depend on the processing

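The median relative log2 ratio of the 4 factors was -1.02 in KO/WT, -0.33 in KO_FL/WT, -1.07 in KO_dN/WT, 0.71 in KO_FL/KO, -0.02 in KO_dN/KO and 0.91 in KO_FL/KO_dN. It was recomputed under 9 alternatives, and a shift of 1.5-fold or more was taken as a move, since there is no replicate spread; 45 of 54 values did not move. With no filter on low values it was -2.73 in KO/WT, -1.85 in KO_FL/WT and -3.08 in KO_dN/WT, where the median gene that is subtracted had a log2 ratio of -0.23 in KO/WT in place of -1.94. With a mean of at least 5 FPKM it was -0.39 in KO/WT and -0.19 in KO_dN/WT. In KO_dN/WT it was also -0.43 with a pseudocount of 0.1 FPKM, -0.43 with TPM and -0.38 with quantile normalization, which gave 0.28 in KO_FL/KO_dN. Because the median gene is subtracted, rescaling whole groups, as TPM does, acts only through the pseudocount and the filter. Such an alternative is thus no separate check of the scale. Summing repeated identifiers left the FPKM of the 4 factors unchanged and acted only on the median gene, from -1.9425 to -1.9433 in KO/WT. Its values could therefore hardly move, and they count among those that did not. A changed filter likewise left the FPKM of the 4 factors unchanged and acted only on the median gene, at -2.57 in KO/WT with a mean of at least 5 FPKM. The cause of the other moves was not tested. The sign of the median stayed in KO/WT, KO_dN/WT, KO_FL/KO and KO_FL/KO_dN under all 9, and changed under 3 in KO_FL/WT and 6 in KO_dN/KO. Among single factors, 172 of 216 values did not move, and 1 called value reversed: eef1a1l1 in KO_FL/WT, at -0.46 with no filter. No paired analysis was possible because each group has 1 deposited value, and for the same reason no replicate could be left out. How far depth limits the values of genes under 1 FPKM cannot be stated, as the number of reads is not known.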

Other observations

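Genes of translation that fell outside the roles above gave these values. EIF5A2, a second eIF5A gene chosen after its values were seen, was at 43.2 FPKM in WT, against 7.35 in KO, 13.9 in KO_FL and 6.03 in KO_dN. It was below eif5a in WT and above it in each mutant group, as eif5a was at 66.2, 3.61, 6.48 and 2.18 FPKM. Of the mitochondrial elongation and termination list, 2 of 9 identifiers passed the filter. MTRES1, a factor of mitochondrial ribosome rescue, was at 7.50 FPKM in WT, then 0.286 in KO, 0.527 in KO_FL and 0.443 in KO_dN. The 26 identifiers of the 5 lists below the filter did not exceed 2.47 FPKM in any group.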
